A study of Mus musculus with 4 samples.

Results

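The genes described here handle arginine and the polyamines made from it. They were chosen by symbol, as *Arg1*, *Arg2*, *Nos2*, *Ass1*, *Odc1*, *Srm*, *Sms*, *Sat1* and *Slc7a1*, and all 9 of these 9 symbols were found among the 24346 symbols of the deposited files. All 9 also had a mean of at least 0.1 FPKM (fragments per kilobase of exon, scaled to the number of mapped fragments) over the libraries, as did 15896 genes in all. Dorsal skin of male C57BL/6 mice was sequenced in 4 libraries, 2 in each of 2 groups. The Cont-IMQ group received the NASH diet, which is rich in fat, cholesterol, sucrose and bile salt, and the 7KC-IMQ group received the same diet with 7-ketocholesterol (7KC), an oxidized form of cholesterol. These groups are also called the control diet and the 7KC diet. Feeding began at an age of 8 weeks and lasted for 3 weeks, and the mice were then treated with 5% imiquimod (IMQ) cream for 1 day, as the labels of all 4 libraries state. The series' design text gives this length for the control diet only and speaks of daily cream for the 7KC diet, so if the length of treatment differed, it and the diet cannot be told apart. IMQ activates Toll-like receptors and induces a psoriasis-like dermatitis. Skin that received no IMQ, and skin of mice on a normal diet, are not part of the comparison, so the values compare the 2 diets under IMQ and say nothing of IMQ itself. Sample labels give no animal for a library, and p-values therefore measure the spread between these libraries, which may be technical in part.

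Arginine enters cells through cationic amino acid transporters such as the product of *Slc7a1*, and can also be made from citrulline, with argininosuccinate synthase (*Ass1*) at the first step. Arginases (*Arg1* in the cytosol, *Arg2* in mitochondria) split it into urea and ornithine, whereas nitric oxide (NO) synthases, among them the inducible *Nos2*, turn it into NO and citrulline. Ornithine decarboxylase (*Odc1*) converts ornithine into putrescine, spermidine synthase (*Srm*) and spermine synthase (*Sms*) extend it to spermidine and spermine, and the acetyltransferase of *Sat1* marks polyamines for breakdown and export. Polyamines are needed by dividing cells, and ornithine decarboxylase is well known in the growing hair follicle and in proliferating epidermis. Arginase 1 is made both by keratinocytes and by macrophages, and inducible NO synthase by activated myeloid cells and keratinocytes.

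In IMQ-treated skin of 7KC-fed mice, *Arg1* stood at 3.04 against 6.46 FPKM, while *Nos2*, *Odc1*, *Srm* and *Slc7a1* had higher means than in the Cont-IMQ group. The largest difference in each direction was that of *Arg1*, 2.12-fold lower in mean FPKM, and that of *Nos2*, 2.66-fold higher in mean FPKM but at under 1 FPKM. A difference of 1.53-fold was measured for *Srm* and of 1.37-fold for *Odc1*. After Benjamini-Hochberg adjustment of the limma p-values, 0 of the 9 genes passed the threshold of 0.05, where 1 of all 15896 genes tested did (0.00629%, the microRNA gene *Mir24-2*, lower under the 7KC diet). Before adjustment, *Srm* and *Nos2* (higher) and *Arg1* (lower) passed, 3 of the 9, where 13.0% of all genes did so, 7.50% as higher and 5.47% as lower under the 7KC diet. Of the 9 genes, 5 were higher and 1 was lower under the 7KC diet with no overlap between the groups, where 23.9% of all genes were higher and 22.9% lower in this way. The median difference of the 9 genes was 0.19 on the log2(FPKM + 1) scale, against -0.01 over all genes tested. With 2 libraries in each group, the smallest two-sided p-value of the exact permutation test is 0.333, which was obtained for each of the 6 genes whose groups do not overlap.

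**Figure D1:**
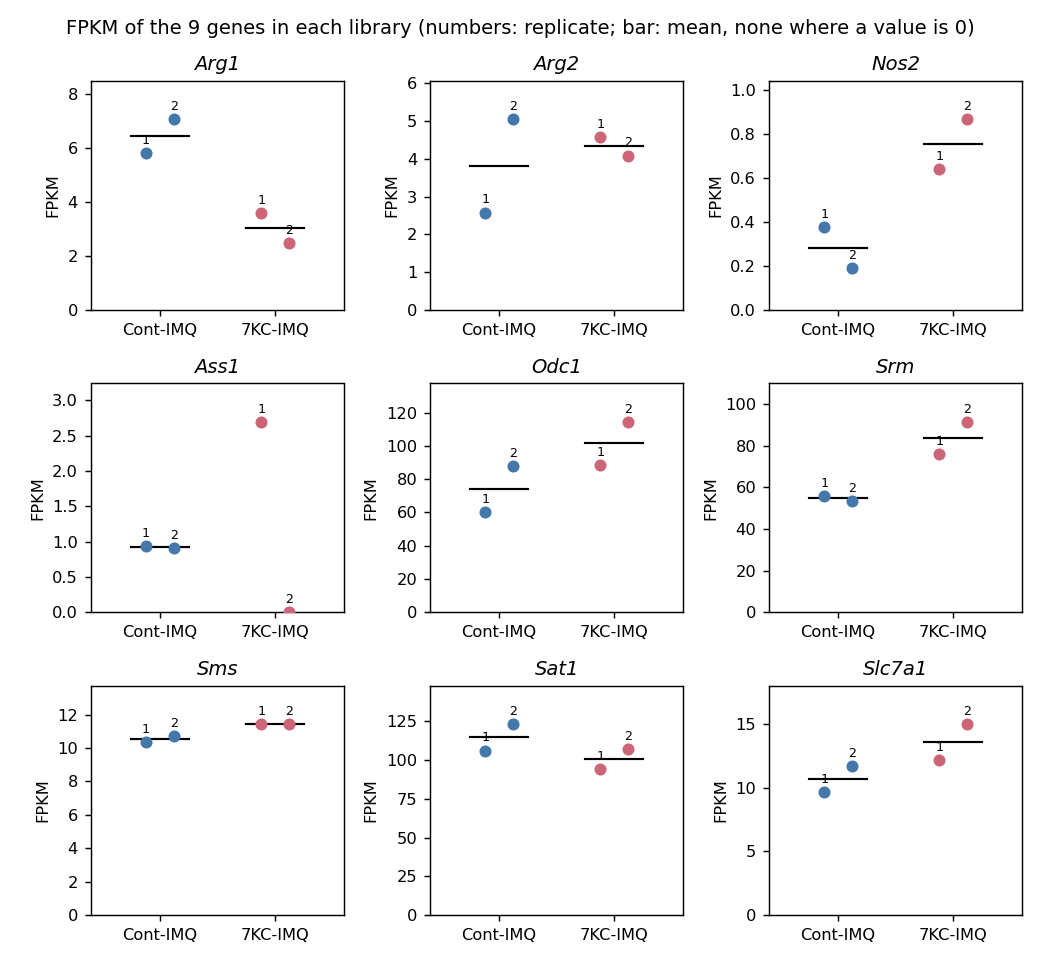
Each panel plots FPKM (vertical axis, from 0) of 1 gene in the 2 Cont-IMQ libraries (blue) and the 2 7KC-IMQ libraries (red), with the replicate number at each point and a bar at the group mean, left out where a library is listed at 0. *Arg1* is lower in both 7KC-IMQ libraries, *Srm*, *Nos2*, *Slc7a1*, *Sms* and, by 0.400 FPKM, *Odc1* are higher in both, and *Arg2*, *Ass1* and *Sat1* overlap.

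Promoter windows of 300 bases from RefSeq (GRCm38.p6) run from 250 bases before to 50 bases after a start site, and were found for 5 of the 9 genes (*Ass1*, *Odc1*, *Sms*, *Sat1* and *Slc7a1*). Among these, *Odc1*, *Slc7a1*, *Sms* and, with a library at 0, *Ass1* had higher means in the 7KC-IMQ group. The windows of *Odc1*, which makes the first polyamine, and of *Slc7a1*, which brings in its precursor, are shown as examples. They are written 5′ to 3′ on the strand of the gene, at chr12:17544623-17544922 (plus strand) and chr5:148399855-148400154 (minus strand, the first of 2 start sites). Capitals mark the GC box, GGGCGG on either strand.
Odc1: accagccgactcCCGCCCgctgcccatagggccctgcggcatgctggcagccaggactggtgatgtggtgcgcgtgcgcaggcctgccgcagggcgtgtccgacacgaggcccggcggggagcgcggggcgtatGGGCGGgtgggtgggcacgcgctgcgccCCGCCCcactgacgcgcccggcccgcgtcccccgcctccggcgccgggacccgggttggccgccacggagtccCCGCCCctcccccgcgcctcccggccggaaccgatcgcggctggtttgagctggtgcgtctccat
Slc7a1: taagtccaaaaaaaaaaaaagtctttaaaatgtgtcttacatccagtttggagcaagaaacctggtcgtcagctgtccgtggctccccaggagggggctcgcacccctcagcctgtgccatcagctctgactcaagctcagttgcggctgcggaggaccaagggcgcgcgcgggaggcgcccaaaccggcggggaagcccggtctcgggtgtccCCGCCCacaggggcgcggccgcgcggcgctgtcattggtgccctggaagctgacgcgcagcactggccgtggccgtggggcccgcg
There were 4 GC boxes in the *Odc1* window and 1 in that of *Slc7a1*, and 35.7% of all 32851 windows held at least 1. Bases G and C made up 78.0% of the *Odc1* window and 65.0% of the *Slc7a1* window, against a median of 52.7% over all windows. The palindrome CACGTG, an E-box bound by Myc among others, was found in neither of these 2, and occurred in 1 copy in the windows of *Ass1* and of the first *Sms* start site, as in 7.15% of all windows. The window of the second *Slc7a1* start site, not shown, held 0 GC boxes, with 51.7% G and C. Letters in a window do not show that a factor was bound there.

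The 9 genes differed widely in level. On the FPKM scale, which accounts for length, *Sat1* (mean of 108 FPKM over the 4 libraries), *Odc1* (87.9 FPKM) and *Srm* (69.3 FPKM) were the most abundant and lay at percentiles 94.7, 93.4 and 91.5 of the genes tested. *Slc7a1* (12.1 FPKM) and *Sms* (11.0 FPKM) came next, followed by *Arg1* (4.75 FPKM) and *Arg2* (4.07 FPKM). *Ass1*, as listed, and *Nos2* were lowest, with *Nos2* at 0.519 FPKM. Neighbors in this order overlapped in their ranges over libraries, except that every *Srm* value lay above every *Slc7a1* value, and every *Sms* value above every *Arg1* value. Part of the *Ass1* sequence also occurs in *Gm5424*, as given below, so the place of *Ass1* in this order is uncertain.

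*Arg1* was lower under the 7KC diet, whereas *Arg2* overlapped between the groups. *Arg1* (ENSMUSG00000019987.9, chromosome 10 of GRCm38 from 24915221 to 24927484, minus strand) had 5.83 and 7.08 FPKM under the control diet (replicates 1 and 2) and 3.59 and 2.49 FPKM under the 7KC diet (replicates 1 and 2). Both 7KC-IMQ libraries lay below both Cont-IMQ libraries, by at least 2.25 FPKM. The group values were 6.46 ± 0.883 and 3.04 ± 0.775 FPKM (SD, n = 2), from an estimated 113 and 135 against 74 and 48 reads. On the log2(FPKM + 1) scale the difference was -0.89 (standard error 0.18, 95% interval -1.37 to -0.42, adjusted p = 0.352 in limma). It was larger than the spread between replicates and ranged from -1.09 to -0.70 when single libraries were left out.
For *Arg2*, no direction could be given. This gene (chromosome 12, 79130777 to 79156301) had 2.58 and 5.05 FPKM under the control diet and 4.57 and 4.09 FPKM under the 7KC diet. The groups overlapped, since the Cont-IMQ libraries held both the lowest and the highest value. Its difference was 0.19 (95% interval -0.52 to 0.91, adjusted p = 0.796 in limma), and without Cont-IMQ replicate 1 it was -0.18. *Arg2* overlaps *Vti1b* on the opposite strand, and whether the authors counted by strand is not given in the sources used here. Within a library, *Arg1* was 2.26 and 1.40 times as high as *Arg2* in FPKM under the control diet, and 0.785 and 0.610 times as high in the 7KC-IMQ group. The arginase with the higher level was therefore *Arg1* in both Cont-IMQ libraries and *Arg2* in both 7KC-IMQ libraries. Their sum came to 8.41 and 12.1 FPKM under the control diet and 8.16 and 6.58 FPKM under the 7KC diet.
In bulk skin, fewer cells of a type and less RNA per cell cannot be told apart. The list of macrophage and monocyte markers, of which 9 of 9 were measured and none was at 0, summed to 396 and 444 FPKM under the control diet and to 363 FPKM in each 7KC-IMQ library. Of these markers, 3 of 9 were lower and 0 higher without overlap, where 22.9% of all genes tested were lower and 23.9% higher in this way. The same shares apply to the 2 lists that follow. Suprabasal keratinocyte markers (6 of 7 found) summed to 9575 to 16730 FPKM under the control diet and 11109 to 12310 FPKM under the 7KC diet, with overlap, and 2 of the 6 were lower and 0 higher without overlap. Hepatocyte markers (5 of 5 found, *Cyp7a1* at 0 in every library) were low, and summed to less in both 7KC-IMQ libraries, at 3.84 and 3.10 FPKM against 5.60 and 5.48 FPKM, with 2 lower and 0 higher without overlap. The part of these lists in the *Arg1* result was not tested. Among the other 13109 genes that averaged 1 FPKM or more, the 3 whose centered log2(FPKM + 1) values over the 4 libraries lay nearest to those of *Arg1* were *Cldn8* (a claudin of tight junctions), *5430427M07Rik* and *Otud1* (a deubiquitinase), at Euclidean distances of 0.139, 0.155 and 0.170. With 4 libraries, such likeness is only a description.

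Of the enzymes that use arginine for NO, *Nos2* (ENSMUSG00000020826.8, chromosome 11 from 78920787 to 78960254, plus strand) was listed at 0.376 and 0.190 FPKM under the control diet and at 0.640 and 0.868 FPKM under the 7KC diet. Both 7KC-IMQ libraries were higher. The group values were 0.283 ± 0.132 and 0.754 ± 0.161 FPKM (SD, n = 2), from an estimated 23 and 11 against 41 and 52 reads, above the 3 reads taken as the floor. The difference was 0.45 on the log2(FPKM + 1) scale, which understates changes at this level (standard error 0.14, 95% interval 0.09 to 0.81, adjusted p = 0.357 in limma), and 1.19 with a pseudocount of 0.1. Its unadjusted p-value was not under 0.05 without Cont-IMQ replicate 2 or without 7KC-IMQ replicate 2. The ratio of *Nos2* to *Arg1* FPKM within a library was 0.0645 and 0.0268 in the Cont-IMQ group and 0.178 and 0.348 in the 7KC-IMQ group, without overlap.
Neutrophil markers (8 of 9 found) summed to 20.6 and 25.3 FPKM under the control diet and 31.2 and 33.4 FPKM under the 7KC diet. Of the 7 tested, 5 were higher and 1 lower without overlap, where 23.9% of all genes tested were higher and 22.9% lower. *Ly6g*, the first gene of the list, was not found, and *Camp*, *Ngp* and *Ltf* were at 0 in at least 1 library. Some markers rest on few reads. An estimated 5 and 10 against 21 and 12 reads were behind *Retnlg*, and 3 and 0 against 6 and 6 behind *Camp*. The part of the neutrophil markers in the *Nos2* values was not tested. The constitutive synthases were measured as well. *Nos3*, the endothelial synthase, had 2.91 and 2.97 FPKM under the control diet and 3.26 and 3.39 FPKM under the 7KC diet (difference 0.13, adjusted p = 0.618 in limma). *Nos1*, the neuronal synthase, overlapped, with 4.42 and 1.67 against 0.936 and 2.76 FPKM. Around the synthases, *Gch1*, the rate-limiting enzyme for their cofactor tetrahydrobiopterin, had 11.99 and 11.75 FPKM under the control diet and 15.9 and 18.2 FPKM under the 7KC diet (difference 0.49, standard error 0.10, adjusted p = 0.352 in limma). *Ddah1*, which removes methylated arginines that inhibit the synthases, had 7.06 and 4.27 against 10.4 and 9.18 FPKM (difference 0.72, standard error 0.23, adjusted p = 0.365 in limma). *Spr*, the most abundant gene of this set, overlapped at 25.2 to 32.1 FPKM. With *Nos2* included, the set (8 tested) held 4 genes higher and 2 lower without overlap. Of all genes tested, 23.9% were higher and 22.9% lower in this way. The lower ones were *Ddah2*, with 19.9 and 20.3 against 17.9 and 17.0 FPKM, and *Pts*, with 12.3 and 10.6 against 10.4 and 9.33 FPKM.

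**Figure D2:**
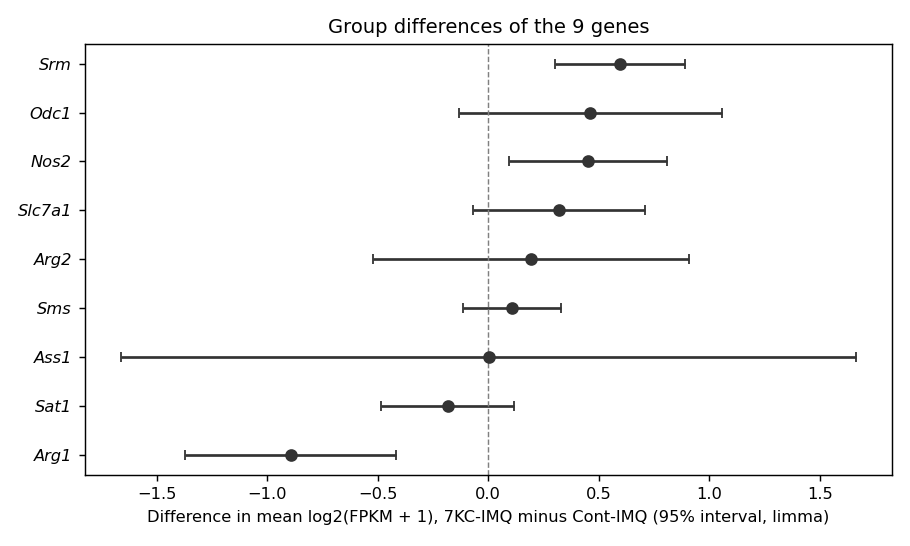
Points are the differences in mean log2(FPKM + 1), 7KC-IMQ minus Cont-IMQ (horizontal axis), of the 9 genes (vertical axis), with 95% intervals from limma and a dashed line at 0. The intervals of *Arg1*, *Srm* and *Nos2* leave out 0 before adjustment for the genes tested, and the interval of *Ass1*, with a library at 0, is the widest, from -1.66 to 1.66.

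Arginine supply was measured through synthesis and transport. *Ass1* (chromosome 2, 31470207 to 31520672) was listed at 0.938 and 0.905 FPKM under the control diet, at 2.70 FPKM in 7KC-IMQ replicate 1 and at 0 in 7KC-IMQ replicate 2. *Rpl26*, a ribosomal protein gene of every cell, was also listed at 0 in Cont-IMQ replicate 2, with 7.23 FPKM in replicate 1. It had 10.3 and 3.67 FPKM under the 7KC diet. A 0 in these files therefore need not mean that a gene was silent. The cause of the 0 of *Ass1* was not tested. Of the 75-base windows of *Ass1* transcripts, 32.6% also occur in *Gm5424*, so their reads can be exchanged. *Gm5424*, looked up after the values of *Ass1* were seen, was listed at 31.37 and 29.98 FPKM under the control diet and at 36.1 and 47.6 FPKM under the 7KC diet. The sum of both was 32.3 and 30.9 FPKM against 38.8 and 47.6 FPKM, higher in both 7KC-IMQ libraries. Nearly all of this sum was listed under *Gm5424*, and the share that belongs to *Ass1* was not tested. No direction is given for *Ass1* alone, whose difference turned with the library left out and with the pseudocount. *Asl*, the next enzyme of arginine synthesis and the highest of its set, had 10.7 and 10.3 FPKM under the control diet and 10.9 and 11.7 FPKM under the 7KC diet (difference 0.09, adjusted p = 0.688 in limma). The urea cycle genes of the liver were scarcely measured, as *Otc* and *Nags* were listed at 0 in every library and *Cps1* reached at most 0.50 FPKM.
*Slc7a1* (ENSMUSG00000041313.14, chromosome 5 from 148327410 to 148399904, minus strand), which encodes the main cationic amino acid transporter of most cells, had 9.69 and 11.7 FPKM under the control diet and 12.2 and 15.0 FPKM under the 7KC diet. The groups did not overlap, although the highest Cont-IMQ and the lowest 7KC-IMQ value were 0.499 FPKM apart. The group values were 10.7 ± 1.42 and 13.6 ± 2.00 FPKM (SD, n = 2), and the difference of 0.32 (standard error 0.15, 95% interval -0.07 to 0.71, adjusted p = 0.445 in limma) was 0.18 without 7KC-IMQ replicate 2 and 0.20 without Cont-IMQ replicate 1. *Slc3a2*, the heavy chain that partners other amino acid transporters, was the most abundant transport gene, with 59.6 and 69.1 FPKM against 74.5 and 85.0 FPKM (difference 0.31, adjusted p = 0.380 in limma). Other cationic transporters did not share this arrangement, since *Slc7a2* and *Slc7a6* were lower without overlap, each by 0.22.

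Polyamine synthesis was represented by *Odc1*, *Srm* and *Sms*. *Odc1* (ENSMUSG00000011179.8, chromosome 12 from 17544794 to 17551505, plus strand), whose promoter window is shown above, had 60.2 and 88.2 FPKM under the control diet (replicates 1 and 2) and 88.6 and 115 FPKM under the 7KC diet (replicates 1 and 2). The groups were separated by 0.400 FPKM only, because Cont-IMQ replicate 2 nearly reached 7KC-IMQ replicate 1. The group values were 74.2 ± 19.8 and 102 ± 18.3 FPKM (SD, n = 2), and the difference was 0.46 (standard error 0.23, 95% interval -0.13 to 1.06, adjusted p = 0.471 in limma). It depended on the library, with 0.19 without Cont-IMQ replicate 1, 0.28 without 7KC-IMQ replicate 2 and 0.73 without Cont-IMQ replicate 2, and the groups overlapped both when every library was scaled to the same FPKM sum and with quantile normalization. Pseudogenes and other genes hold 16.6% of the windows of *Odc1*.
Hair follicle markers (10 of 10 found, none at 0) summed to 116 and 1365 FPKM under the control diet (replicates 1 and 2) and to 404 and 357 FPKM under the 7KC diet. *Odc1* and this sum had the same order in the Cont-IMQ libraries and the opposite order in the 7KC-IMQ libraries. Their part in the *Odc1* values was not tested.
*Srm* (ENSMUSG00000006442.10, chromosome 4 from 148591503 to 148594993, plus strand) had 56.1 and 53.6 FPKM under the control diet and 75.9 and 91.6 FPKM under the 7KC diet. Here the groups stood 19.8 FPKM apart, and the Cont-IMQ libraries were close to each other. The group values were 54.8 ± 1.71 and 83.7 ± 11.1 FPKM (SD, n = 2), from an estimated 913 to 971 against 1397 to 1561 reads, and the difference was 0.60 (standard error 0.11, 95% interval 0.30 to 0.89, adjusted p = 0.352 in limma). It ranged from 0.46 to 0.73 when single libraries were left out. None of the windows of *Srm* occurs in another annotated gene.
For *Sms* (chromosome X, 157443855 to 157492287), the values were 10.3 and 10.8 FPKM under the control diet and 11.4 FPKM in each 7KC-IMQ library. The groups did not overlap, but the difference was only 0.11 (95% interval -0.11 to 0.33, adjusted p = 0.624 in limma), and it was 0.03 with overlap when the libraries were scaled to the same sum. The synthases of spermidine and spermine therefore stood at different ratios. *Srm* was 5.42 and 4.99 times as high as *Sms* in FPKM under the control diet and 6.63 and 8.01 times in the 7KC-IMQ group. Of the windows of *Sms*, 16.9% also occur in pseudogenes or other genes, so its level is less certain than that of *Srm*. *Amd1* and *Amd2*, which encode the S-adenosylmethionine decarboxylase that supplies the aminopropyl groups, share 72.5% and 79.2% of their windows, mostly with each other. *Amd1* was listed at 8.09 FPKM in 7KC-IMQ replicate 1 and under 0.03 FPKM in the other libraries. Summed over both symbols, the values were 52.3 and 42.7 FPKM under the control diet and 51.3 and 50.4 FPKM under the 7KC diet, with overlap.
Markers of proliferation (10 of 10 found, none at 0) summed to 255 and 280 FPKM under the control diet and to 329 FPKM in each 7KC-IMQ library, and 9 of the 10 were higher without overlap, where 23.9% of all genes tested were. Their part in the *Odc1* and *Srm* values was not tested.

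Polyamine breakdown gave no common direction. *Sat1* (ENSMUSG00000025283.15, chromosome X from 155213132 to 155216449, minus strand) had 106 and 123 FPKM under the control diet and 94.4 and 107 FPKM under the 7KC diet. The groups overlapped, with Cont-IMQ replicate 1 just below 7KC-IMQ replicate 2. The group values were 115 ± 12.1 and 101 ± 9.14 FPKM (SD, n = 2), and the difference was -0.18 (standard error 0.11, 95% interval -0.48 to 0.12, adjusted p = 0.550 in limma). *Smox*, the spermine oxidase, was the most abundant breakdown gene, with 96.5 and 114 FPKM under the control diet and 126 and 167 FPKM under the 7KC diet (difference 0.47, standard error 0.17, adjusted p = 0.373 in limma). The order of both breakdown genes differed between the groups, since *Smox* was below *Sat1* in both Cont-IMQ libraries (0.909 and 0.922 times as high in FPKM) and above it in both 7KC-IMQ libraries (1.34 and 1.55 times as high). Similarly, the ratio of *Odc1* to *Sat1* was 0.566 and 0.715 in the Cont-IMQ group and 0.938 and 1.07 in the 7KC-IMQ group. *Sat2*, a relative of *Sat1*, was low, with 1.26 and 1.76 against 0.995 and 0.589 FPKM (difference -0.49, adjusted p = 0.374 in limma).

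The other genes of arginine and polyamine metabolism were taken from a list of 51 in 11 sets by role, of which 47 could be tested. None of the 47 passed the adjusted threshold in limma, and 7 higher and 3 lower ones had an unadjusted p-value under 0.05, where 7.50% of all genes tested were higher and 5.47% lower in this way. The count of 10, against 13.0% of all genes, was 3 without 7KC-IMQ replicate 2, 5 without 7KC-IMQ replicate 1 and 6 without Cont-IMQ replicate 1. There were 16 genes higher and 11 lower without overlap, together 57.4% of the 47 against 46.8% of all genes tested, and the median difference was 0.03.
By set, the proline and creatine enzymes (8 tested) held 4 genes higher and 1 lower without overlap. For this set and those below, the shares over all genes tested were 23.9% higher and 22.9% lower. *Aldh18a1*, which makes the precursor shared by proline and ornithine from glutamate, had 14.8 and 13.3 FPKM under the control diet and 20.3 and 21.9 FPKM under the 7KC diet (difference 0.56, standard error 0.09, adjusted p = 0.352 in limma). *Gatm*, of creatine synthesis, was lower, with 4.13 and 3.53 against 3.07 and 2.72 FPKM. *Oat*, which links ornithine with proline and was the highest of the set, overlapped at 69.7 to 80.1 FPKM.
Of the methionine salvage set (7 tested), which recycles the by-product of spermidine and spermine synthesis, 4 were higher and 1 lower without overlap. Among these, *Mtap* had 11.5 and 12.3 FPKM under the control diet and 14.6 and 15.6 FPKM under the 7KC diet, and *Mat2a*, which makes S-adenosylmethionine, had 72.9 and 93.8 against 99.7 and 109 FPKM. The lower one was *Mat2b*, with 30.5 and 29.3 against 25.3 and 26.2 FPKM (difference -0.21, adjusted p = 0.372 in limma). *Mtap*, *Mat2a* and *Gch1* overlap annotated genes on the opposite strand. Of the hypusination set (4 tested), in which spermidine modifies a translation factor, 2 were higher and 1 lower. *Eif5a*, that factor and the most abundant gene of the whole list, had 867 and 819 FPKM under the control diet and 992 and 1054 FPKM under the 7KC diet (difference 0.28, standard error 0.10, adjusted p = 0.372 in limma). *Eif5a2*, its scarce relative, was lower, with 1.43 and 1.49 against 1.24 and 0.809 FPKM.
The antizymes and their inhibitors (5 tested), which control ornithine decarboxylase protein, held 0 genes higher and 2 lower without overlap. *Oaz1* was the highest of them, with 71.8 and 73.4 FPKM under the control diet and 70.9 and 59.0 FPKM under the 7KC diet (difference -0.16, adjusted p = 0.572 in limma). Of the polyamine transport set (3 tested), *Atp13a2*, a lysosomal polyamine exporter, was lower, with 18.8 and 21.3 against 15.6 and 16.7 FPKM (difference -0.29, adjusted p = 0.365 in limma), and the other 2 overlapped. *Agmat* and *Aoc1*, with at most 0.152 FPKM, were too low to be tested.

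**Figure D3:**
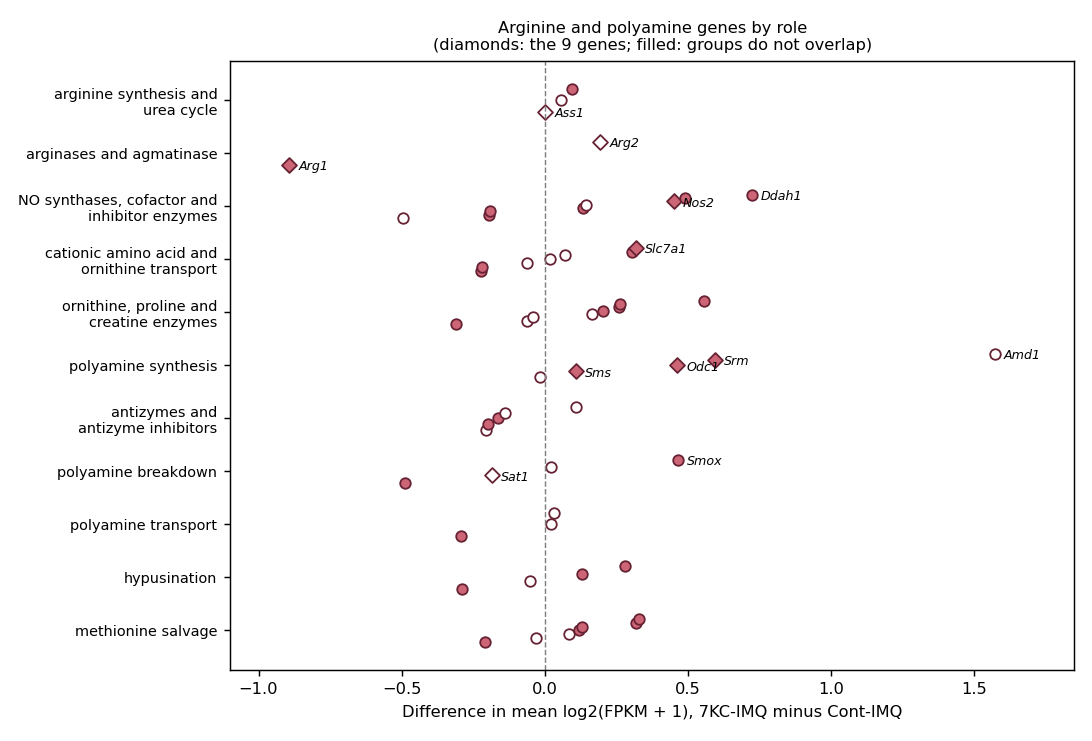
Each symbol is 1 gene, placed by its difference in mean log2(FPKM + 1), 7KC-IMQ minus Cont-IMQ (horizontal axis), in the set of its role (vertical axis). Diamonds are the 9 genes, circles the 47 others tested, and filled symbols mark groups that do not overlap. *Arg1* is the lowest, and *Amd1*, the highest at 1.57, overlaps between the groups and rests on 1 library.

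The libraries themselves were alike in depth, which was estimated from the steps of low values at 14960000 to 16180000 mapped reads. FPKM values summed to 651015 and 630272 in Cont-IMQ replicates 1 and 2, and to 654666 and 702218 in 7KC-IMQ replicates 1 and 2. The main comparison did not rescale the libraries. Skin was recognizable in all of them by its keratins, with 2544 to 3062 FPKM of *Krt5* and 3191 to 5867 FPKM of *Krt1*. Endothelial markers (5 of 5 found) summed to 55.5 and 68.5 against 52.2 and 48.1 FPKM, with 0 higher and 3 lower without overlap. T cell markers (4 of 6 found) summed to 16.0 and 14.5 against 12.2 and 9.76 FPKM, with 1 higher and 2 lower. Both sums were lower in both 7KC-IMQ libraries, but *Cd3d* was the higher T cell gene, with 1.45 and 1.46 against 1.57 and 1.47 FPKM. Beside these counts and those below, 23.9% of all genes tested were higher and 22.9% lower without overlap. Skeletal muscle markers (6 of 6 found) were also lower in sum in both 7KC-IMQ libraries, at 5739 and 6873 FPKM against 7074 and 6985 FPKM. Of these genes, 2 were higher and 2 lower without overlap. Their mean centered log2(FPKM + 1) values overlapped, at 0.018 and -0.179 under the control diet against -0.038 and 0.198 under the 7KC diet. Fibroblast (2135 to 2846 FPKM), adipocyte (951 to 1412 FPKM) and red blood cell markers (6.71 to 27.0 FPKM) overlapped in sum between the groups. Basal keratinocyte markers were higher in sum in both 7KC-IMQ libraries, at 7959 and 8787 FPKM against 7879 and 7083 FPKM. Of the 6 genes, 2 were higher and 1 lower without overlap, and *Krt5* overlapped (difference -0.02). Their mean centered log2(FPKM + 1) values overlapped as well, at 0.012 and -0.019 against -0.012 and 0.019.

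**Figure D4:**
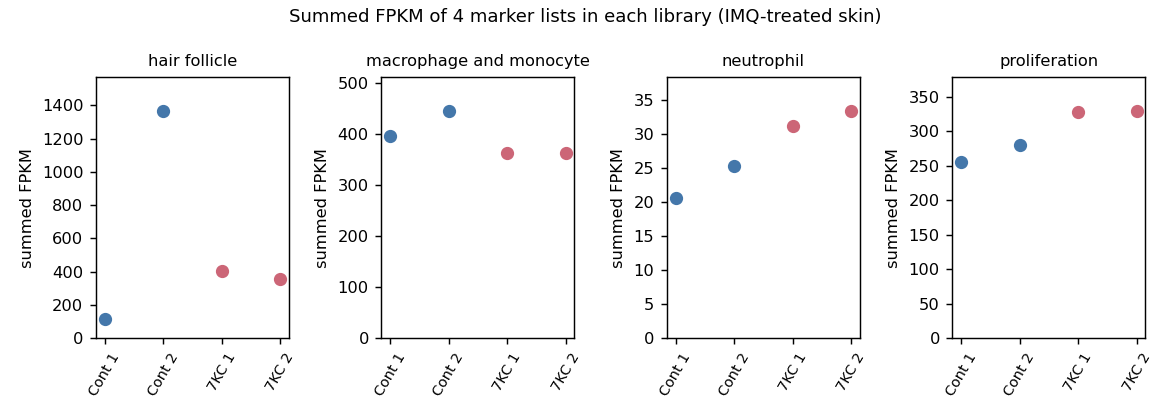
Summed FPKM (vertical axes, from 0) of 4 marker lists in Cont-IMQ replicates 1 and 2 (blue) and 7KC-IMQ replicates 1 and 2 (red). The hair follicle sum of Cont-IMQ replicate 2, 1365 FPKM, stands apart from the others, the macrophage sum is lower and the neutrophil and proliferation sums are higher in both 7KC-IMQ libraries.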

How the data were processed

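RNA of IMQ-treated dorsal skin was sequenced in 4 libraries on Day 1, 2 per group. Single-end reads of 75 bases had been aligned to mm10 by the authors, who deposited FPKM values, 1 file per library. The submitters' processing notes name TopHat2 2.1.1, Bowtie2 2.2.8, SAMtools 0.1.18 and Cuffdiff 2.2.1, whereas the paper's methods name other versions and Cufflinks. How reads of several genes were divided is not given in the sources used here. Groups were taken from the sample titles.

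These were taken as log2(FPKM + 1) with no rescaling, genes averaging under 0.1 FPKM were dropped, and the groups were compared by limma 3.58.1 in R 4.3.3 (lmFit, eBayes with a variance trend, Benjamini-Hochberg adjustment over all genes, threshold 0.05). The script was tested on simulated data. Depth was the number of reads that brought low values of genes with a single transcript (length less 200 bases) closest to whole reads, 73.6% to 75.9% of them within 0.1 of a read against 20.0% by chance. Reads of a gene are estimates from its longest transcript and cover counting error only. Coordinates, transcripts and shared 75-base windows came from GENCODE M21 (GRCm38, which is mm10).

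The genes, lists and tests were chosen with earlier results of these data known. Named pathway genes were those averaging 1 FPKM or more whose groups did not overlap, up to 12 by size, and the highest of each set. *Nos1*, *Nos3*, *Ddah2*, *Pts*, *Mat2b*, *Cps1*, *Otc*, *Nags*, *Agmat*, *Aoc1*, *Amd1*, *Amd2*, *Slc7a2*, *Slc7a6* and *Mir24-2* fell outside this rule. They, and sums and ratios of genes, were chosen after their values were seen. Of 148 listed symbols, 5 were not used here for want of a row. Alternatives were another pseudocount, other filters and scalings, a constant prior variance, a block for the replicate number, and leaving out each library.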

Additional observations from a re-analysis of the deposited data

How the results depend on the processing

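Of the differences of single genes recomputed under the alternatives, 102 kept their direction and 5 did not. The latter belonged to *Ass1*, at -0.95 with a pseudocount of 0.1, -0.015 with scaling to the same FPKM sum, and -0.94 to 0.95 when single libraries were left out (-0.011 without Cont-IMQ replicate 2), and to *Arg2*, at -0.18 without Cont-IMQ replicate 1 and up to 0.57 without the others. None of the 9 genes passed the adjusted threshold under any alternative. Of the 5 genes higher without overlap, 3 were left with the same sum, since *Odc1* and *Sms* then overlapped, and 4 with quantile normalization, where *Odc1* overlapped, while the 1 lower gene became 2 with that scaling and with quantile normalization (*Sat1* joined *Arg1*) and 1 to 3 when libraries were left out. *Nos2*, at under 1 FPKM on average, was not tested with a minimum of 1 FPKM. With a lone library in a group, groups separate more readily by construction. Counts without overlap from such comparisons therefore cannot be set against those from all 4 libraries. Leaving out libraries gave 14 to 20 pathway genes lower without overlap, and 11 were so with all 4. Over all genes it gave 1 to 11 adjusted calls in place of 1, the most without Cont-IMQ replicate 1, and 619 (without 7KC-IMQ replicate 2) to 2345 unadjusted ones in place of 2061. A pseudocount of 0.1 gave 2 adjusted calls over all genes. With a replicate block, 5 of the 9 genes in place of 3 had an unadjusted p-value under 0.05, adding *Odc1* and *Slc7a1*. The labels give the groups the same replicate numbers and nothing more, and deviations of same-numbered libraries correlated at r = 0.0776 over 13110 genes, so the samples were not treated as paired. With a library left out, the lone sample of its group was assumed to vary like the other group. Depth is an estimate, and *Nos2*, *Arg2* and *Ass1* rest on under 100 reads per library.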
